A study of Mus musculus with 6 samples.

Results

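Gap junctions of the epidermis were read through 4 connexin genes, Gjb5, Gjb2, Gjb6 and Gja1, which are 4 of the 30386 genes in the deposited table. They were taken by name as gap junction genes of keratinocytes, and Gjb5 was chosen by its lower CPM in the knockout, so the values of Gjb5 are given as a description without a test. The data are 3' digital mRNA sequencing libraries, whose reads mark the ends of transcripts, of back skin epidermis from mouse embryos at E18.5. The mutant epidermis carried the genotype labelled p63alphaKO (3 libraries) and the controls were wild type (WT, 3 libraries). The sources used here do not give the making of the p63alphaKO allele, its zygosity or the mouse strain, nor whether each replicate was its own embryo, so p-values measure the spread between these libraries, which may be technical. Trp63, the gene of the knockout, encodes the transcription factor p63 with alternative carboxy-terminal ends, and a count per gene cannot check the loss of the alpha forms.

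Connexins are membrane proteins that span the membrane several times and assemble in rings to form a hemichannel. A hemichannel of a cell docks with that of its neighbour, and the resulting channel passes ions and small molecules between their cytoplasms. Keratinocytes make several connexins at once, and the layers of the epidermis differ in which ones they make. Gja1 encodes Cx43, the most widely made connexin, present in keratinocytes and also in fibroblasts and many other cells. Gjb2 and Gjb6 encode Cx26 and Cx30, which can join in mixed channels; in humans, mutations of either gene cause skin disease or deafness. Gjb5 encodes a connexin of stratified epithelia that is known from the epidermis and from the placenta.

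The 4 genes lie on 3 chromosomes. On mm10, Gjb5 (ENSMUSG00000042357) is on chromosome 4 from 127354809 to 127358181 on the minus strand. Gjb2 (ENSMUSG00000046352, chromosome 14, 57098600 to 57104702, minus strand) and Gjb6 (ENSMUSG00000040055, chromosome 14, 57123303 to 57133611, minus strand) lie 18.6 kb apart. Gja1 (ENSMUSG00000050953, chromosome 10, 56377330 to 56402513, plus strand) stands apart from the other 3. No exon of these 4 genes overlapped an exon of another annotated gene on either strand. Of the 31-base words in the last 500 bases of their annotated transcripts, where 3' reads fall, those of Gjb5, Gjb2 and Gjb6 were found in no transcript of another gene, and for Gja1 2 of 1410 were, so no sequence shared between the paralogs was found there.

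The promoter windows of the 4 genes, from 250 bases before to 50 bases after the RefSeq start site on GRCm38.p6, are shown because Gjb5 was lower in p63alphaKO while Gjb2 and Gjb6 had higher values, and they let the start regions be compared. Capitals mark matches on either strand to CATG (the core letters of many p53-family half-sites), TGANTCA (an AP-1 site) or GGGCGG (a GC box), which do not overlap one another here. The lines give chr4:127358115-127358414 and both chr14:57104653-57104952 and chr14:57133562-57133861 on the minus strand, and chr10:56377050-56377349 on the plus strand.
Gjb5: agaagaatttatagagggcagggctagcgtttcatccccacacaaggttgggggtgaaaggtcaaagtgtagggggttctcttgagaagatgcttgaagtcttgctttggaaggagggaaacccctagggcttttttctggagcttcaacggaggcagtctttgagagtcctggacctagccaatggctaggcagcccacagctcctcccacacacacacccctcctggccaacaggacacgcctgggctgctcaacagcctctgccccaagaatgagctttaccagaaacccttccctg
Gjb2: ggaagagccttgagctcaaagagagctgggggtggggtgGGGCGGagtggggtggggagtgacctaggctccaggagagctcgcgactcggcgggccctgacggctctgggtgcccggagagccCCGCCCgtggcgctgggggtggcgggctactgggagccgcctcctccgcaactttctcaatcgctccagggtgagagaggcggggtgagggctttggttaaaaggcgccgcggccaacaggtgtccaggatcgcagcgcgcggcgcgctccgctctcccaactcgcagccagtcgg
Gjb6: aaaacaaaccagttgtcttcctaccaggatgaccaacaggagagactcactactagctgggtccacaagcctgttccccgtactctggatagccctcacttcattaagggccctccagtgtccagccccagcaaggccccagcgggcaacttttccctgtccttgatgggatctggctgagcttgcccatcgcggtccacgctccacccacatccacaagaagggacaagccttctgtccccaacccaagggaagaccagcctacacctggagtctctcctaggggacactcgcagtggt
Gja1: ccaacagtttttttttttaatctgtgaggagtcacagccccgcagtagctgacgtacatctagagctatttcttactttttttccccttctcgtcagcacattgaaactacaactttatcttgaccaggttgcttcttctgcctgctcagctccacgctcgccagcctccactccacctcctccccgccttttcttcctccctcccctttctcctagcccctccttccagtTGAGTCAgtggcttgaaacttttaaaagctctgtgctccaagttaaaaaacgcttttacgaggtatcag

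CATG was in none of the 4 windows, whereas 61.1% of 32851 RefSeq promoter windows of that length held it. TGANTCA occurred 1 time in the Gja1 window, before the start site, and in 7.81% of all windows. GGGCGG occurred 2 times in the Gjb2 window and in none of the other 3, against 35.7% of all windows. The Gjb2 window also had the highest GC content, at 70.0% with 27 CpG dinucleotides. The Gjb5 window had 54.3% GC and 3 CpG dinucleotides, that of Gjb6 57.3% and 6, and that of Gja1 47.7% and 8, beside a median of 52.7% GC over all windows. These letters describe the windows and say nothing of which factors bind there.

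The genes of the deposited table held 3539604, 3431580 and 3350442 reads in p63alphaKO replicates 1, 2 and 3. In WT replicates 1, 2 and 3 they held 2564407, 4474764 and 3174444 reads. Values are in CPM, the reads of a gene scaled to the same total in every library, and changes are log2 fold changes of CPM + 1, p63alphaKO over WT, from a limma fit over 7464 genes averaging 10 CPM or more. The fit called 123 of these genes (1.65%) at an adjusted p under 0.05, of which 35 were higher (0.469% of those tested) and 88 lower. The groups did not overlap for 21.0% of the tested genes. The split of the calls turned with the scaling: 71.5% were lower, against 58.0% of 112 with TMM scaling and 48.1% of 133 with upper quartile scaling. Over all tested genes the median change was -0.085, and 0.018 and 0.048 under those scalings. Relative to that median, the log2 fold changes were -1.25 for Gjb5, 0.79 for Gjb2, 0.62 for Gjb6 and -0.20 for Gja1.

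Gjb5 was lower in every p63alphaKO library than in every WT library. It was at 40.9, 34.6 and 18.49 CPM in p63alphaKO replicates 1, 2 and 3, against 75.2, 77.3 and 76.8 CPM in WT replicates 1, 2 and 3. The p63alphaKO libraries spread widely, with replicate 3 the lowest, and the 3 WT libraries were nearly equal. The means were 31.4 ± 11.6 CPM in p63alphaKO and 76.4 ± 1.08 CPM in WT (SD, n = 3 each), 2.44-fold lower in p63alphaKO. On the log2 scale the change was -1.33 (SE 0.27), and 120 of the 7464 tested genes had a lower value. Gjb5 was chosen for this fall and was among the 88 genes called lower (1.18% of those tested), which is therefore not a separate finding. It was not among the called genes at a minimum mean of 50 CPM or without p63alphaKO replicate 3.

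Gjb5 rests on few reads, and these bound its precision. The 3 p63alphaKO libraries held 145, 119 and 62 Gjb5 reads and the 3 WT libraries 193, 346 and 244. The 95% Poisson interval, which covers counting error only, was 34.5 to 48.2 CPM for p63alphaKO replicate 1 and 14.2 to 23.7 CPM for p63alphaKO replicate 3, so these libraries of the same genotype differed by more than counting error. Among WT libraries the intervals all overlapped, with limits from 65.0 to 87.1 CPM, and the SD of 1.08 CPM was smaller than the counting error itself. Without p63alphaKO replicate 3 the log2 fold change was -1.0.

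**Figure D1:**
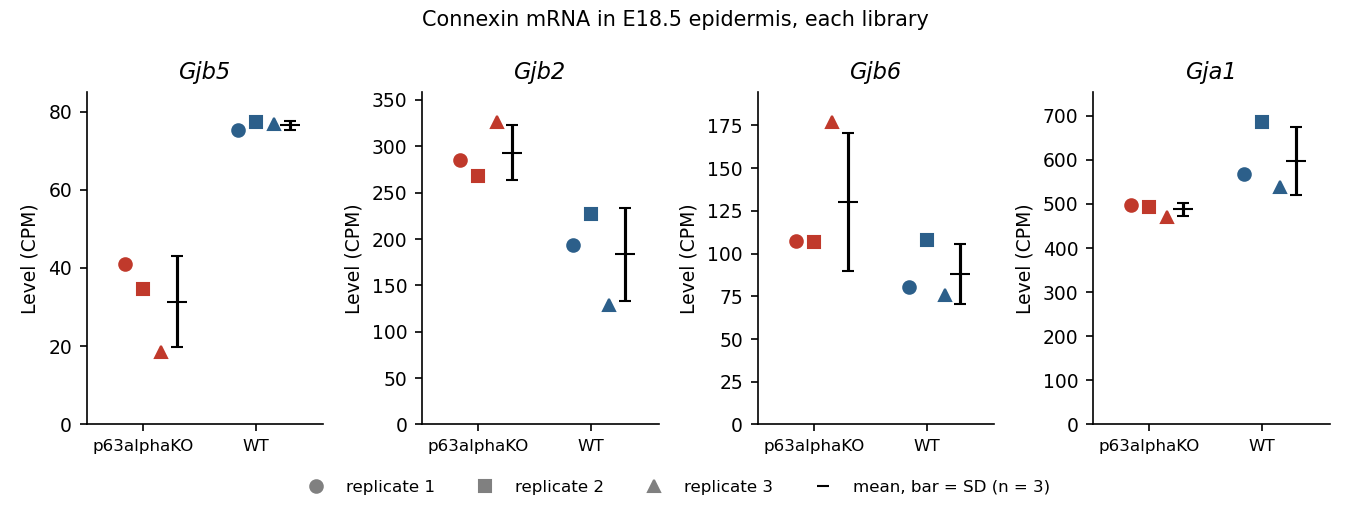
Level in CPM (y axes, from 0) of Gjb5, Gjb2, Gjb6 and Gja1 in each of the 3 p63alphaKO and 3 WT libraries, with a symbol for each replicate and the mean and SD (n = 3) in black. Gjb5 is at 18.49 to 40.9 CPM in p63alphaKO and 75.2 to 77.3 CPM in WT; Gjb2 lies the other way round, Gjb6 overlaps, and Gja1 is lower in all p63alphaKO libraries by a smaller margin.

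Gjb2 had higher values in p63alphaKO but did not pass the test. It was at 284.9, 268.2 and 326.0 CPM in p63alphaKO replicates 1, 2 and 3, against 193.7, 227.3 and 129.1 CPM in WT replicates 1, 2 and 3. All p63alphaKO libraries lay above all WT libraries, as they did for 7.60% of the tested genes, and WT replicate 3 was the lowest. The means were 293.0 ± 29.7 CPM in p63alphaKO and 183.4 ± 49.9 CPM in WT, a ratio of 1.6. The log2 fold change was 0.71 (SE 0.20, limma adjusted p = 0.0915). With DESeq2 on whole reads the value was 0.77 and passed (adjusted p = 0.0373), while over the other alternatives the adjusted p lay above 0.05.

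Gjb6, the neighbour of Gjb2, had a positive log2 fold change that did not pass the test. It was at 107.3, 106.9 and 176.9 CPM in p63alphaKO replicates 1, 2 and 3, against 80.3, 107.8 and 75.9 CPM in WT replicates 1, 2 and 3. The groups overlapped, since WT replicate 2 lay above 2 of the p63alphaKO libraries, and p63alphaKO replicate 3 stood far above the rest. The log2 fold change was 0.54 (SE 0.23, limma adjusted p = 0.269). It was 0.30 without p63alphaKO replicate 3, so that library decided much of the size.

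Gja1, the most abundant of the 4 connexins in every library, had slightly lower values in p63alphaKO and did not pass the test. It was at 497.4, 493.6 and 471.2 CPM in p63alphaKO replicates 1, 2 and 3, against 568.5, 685.3 and 538.4 CPM in WT replicates 1, 2 and 3. The p63alphaKO libraries were close together and all lay below the WT libraries, as they did for 13.4% of the tested genes. The means were 487.4 ± 14.1 CPM in p63alphaKO and 597.4 ± 77.6 CPM in WT, and the log2 fold change was -0.29 (SE 0.15, limma adjusted p = 0.398). Its 95% confidence interval, not adjusted for the number of genes, went from -0.61 to 0.04. Under TMM and upper quartile scaling the change was -0.18 and -0.15.

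Fibroblasts make Gja1 too, and their markers were lower in the same libraries. Of the fibroblast and dermis list, 9 of 11 tested genes were called lower, beside 1.18% of all tested genes. The summed level of the list was 574.4 to 979.6 CPM in p63alphaKO and 2608.0 to 5635.5 CPM in WT. None of its genes was at 0 in all 6 libraries. Within WT the orders differed: the sum was highest in replicate 1 (5635.5 CPM) and lowest in replicate 2 (2608.0 CPM). Gja1 was at 568.5 CPM in WT replicate 1 and highest in WT replicate 2, at 685.3 CPM. The part of these cells in the Gja1 values was not tested. In bulk libraries such as these, fewer cells of a type and less RNA per cell cannot be told apart.

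The keratinocyte layers were present in every library and their marker sums overlapped between the groups. The summed level of 10 basal genes was 4826.1 to 5903.9 CPM in p63alphaKO and 3623.7 to 6415.5 CPM in WT, and that of 10 spinous genes 75544.9 to 90921.5 CPM in p63alphaKO and 76244.3 to 95599.4 CPM in WT. For 10 granular genes it was 48036.5 to 62871.3 CPM in p63alphaKO and 45221.6 to 51521.8 CPM in WT. Log2 fold changes were positive for 8 basal, 3 spinous and 7 granular genes, beside 40.2% of all tested genes. A sum can therefore hide opposite changes, and Krt10 and Krt1 (means of 48343.2 and 23619.4 CPM) made up most of the spinous sum. Among these 30 genes, Krt15 was called lower (361.2 CPM in p63alphaKO, 1347.3 CPM in WT) and Krt77 higher (556.7 CPM in p63alphaKO, 149.0 CPM in WT). Skeletal muscle (66.1 to 110.4 CPM in p63alphaKO and 452.1 to 2733.5 CPM in WT) and red cell lists (559.0 to 1768.9 CPM in p63alphaKO and 1903.3 to 3440.6 CPM in WT) were lower, with 6 of 9 and 3 of 4 tested genes called. Hair follicle markers summed to 1452.5 to 1616.8 CPM in p63alphaKO and 903.6 to 1280.7 CPM in WT, with 1 gene called higher and 2 lower of 8 tested, and melanocyte markers to 346.3 to 489.8 CPM in p63alphaKO and 203.0 to 343.2 CPM in WT, with none of 4 called. Over all tested genes, 1.18% were called lower and 0.469% higher. The part of any of these cell types in the connexin values was not tested.

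**Figure D2:**
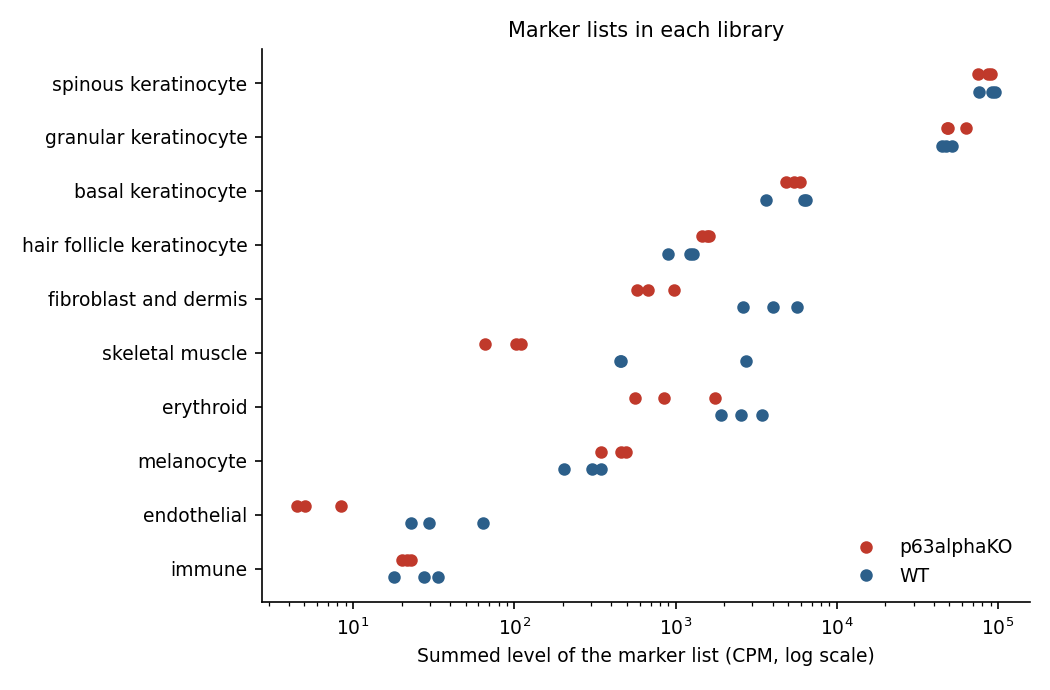
Summed level (x axis, CPM on a log scale) of 10 marker lists in each library, p63alphaKO above WT within each list. The 3 keratinocyte layer lists overlap between the groups, while the fibroblast, skeletal muscle, red cell and endothelial sums of all p63alphaKO libraries lie below those of all WT libraries.

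The levels were also set against the layer markers of the same library. For Gjb5, which was chosen by its lower CPM in these libraries, this restates that difference on another scale and is no separate evidence. Per 1000 CPM of granular markers, Gjb5 was at 0.837, 0.721 and 0.294 in p63alphaKO replicates 1, 2 and 3 and at 1.58, 1.71 and 1.49 in WT replicates 1, 2 and 3. Per 1000 CPM of basal markers it was at 6.93, 7.18 and 3.4 in p63alphaKO replicates 1, 2 and 3 and at 20.8, 12.0 and 12.2 in WT replicates 1, 2 and 3. For Gjb2, the values per 1000 CPM of granular markers were 5.19 to 5.82 in p63alphaKO and 2.51 to 5.03 in WT, and per 1000 CPM of basal markers 48.2 to 60.0 in p63alphaKO and 20.6 to 53.4 in WT, so that they overlapped against the basal markers.

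Other members of the family were examined in the same way. Of 17 other connexin and pannexin genes, 2 reached the mean of 10 CPM for testing and 7 had no read in any library. Neither of the 2 was called, which says little where 1.65% of all tested genes were. Including the 4 genes above, 6 were tested, with 2 positive and 4 negative log2 fold changes and a median of -0.23, beside 40.2% positive and a median of -0.085 over all tested genes. Those of them not tested had at most 4.08 CPM in any library, the highest being Gjb1 in p63alphaKO replicate 2. Gja4, an endothelial connexin, had 1, 0 and 0 reads in p63alphaKO replicates 1, 2 and 3 and 6, 10 and 1 reads in WT replicates 1, 2 and 3. The endothelial marker sum was 4.48 to 8.44 CPM in p63alphaKO and 23.0 to 64.3 CPM in WT, with Tek and Emcn at 0 in p63alphaKO, and its part in the Gja4 reads was not tested.

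Gjc1, a connexin of smooth muscle and other non-epithelial cells, was at 4.52, 8.74 and 2.39 CPM in p63alphaKO replicates 1, 2 and 3, against 23.0, 12.3 and 10.7 CPM in WT replicates 1, 2 and 3. All p63alphaKO libraries lay below all WT libraries, as they did for 13.4% of the tested genes. With a mean of 10.3 CPM it just reached the level for testing and did not pass (log2 fold change -1.45, SE 0.52, limma adjusted p = 0.185). The fibroblast and endothelial sums were lower in the same libraries. WT replicate 1 was the highest WT library for those sums and for Gjc1. Between WT replicates 2 and 3, Gjc1 and the endothelial sum were higher in replicate 2, and the fibroblast sum in replicate 3. The part of these cells in the Gjc1 values was not tested. Panx1, a channel protein of the separate pannexin family, was at 14.5 ± 1.52 CPM in p63alphaKO and 16.5 ± 2.35 CPM in WT (log2 fold change -0.17, SE 0.31, limma adjusted p = 0.852).

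**Figure D3:**
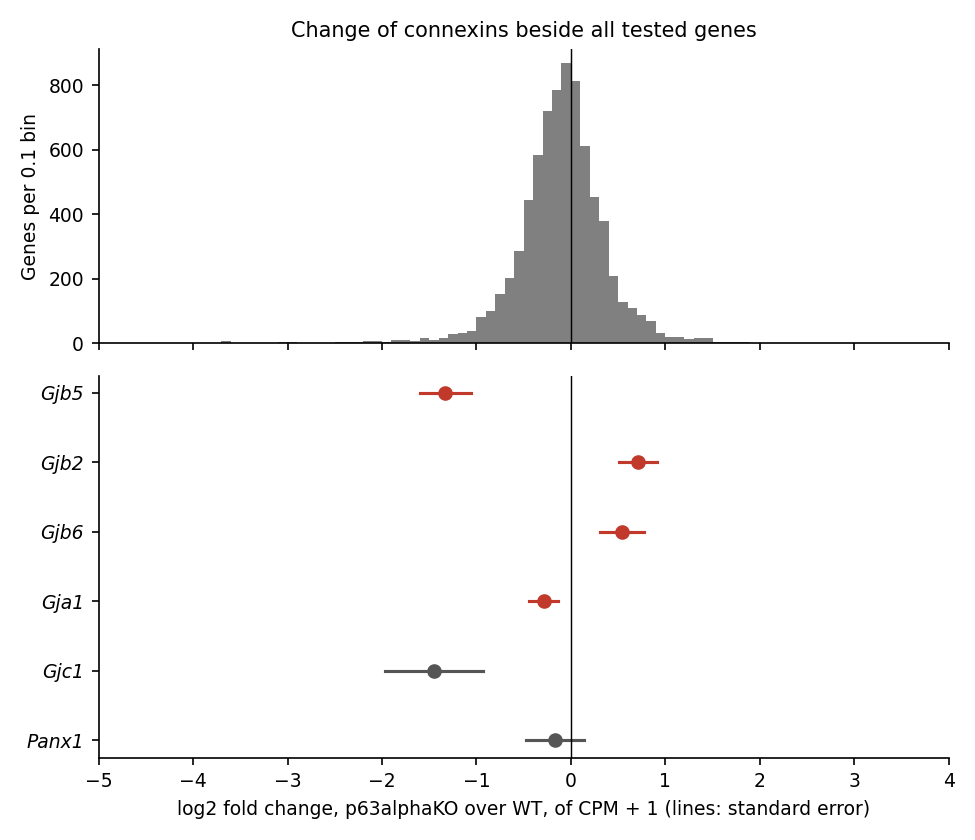
Above, the number of tested genes (y axis, 7464 in all) by log2 fold change of CPM + 1, p63alphaKO over WT (x axis); below, the log2 fold change of Gjb5, Gjb2, Gjb6, Gja1, Gjc1 and Panx1 with its standard error, the first 4 in red. Gjb5 (-1.33) and Gjc1 (-1.45) lie in the lower tail, and Gjb2 (0.71) and Gjb6 (0.54) above the bulk.

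The order of the 4 levels was the same in both groups. Since reads come from the 3' ends, a level does not grow with transcript length, though capture may still differ between genes. By mean CPM the order was Gja1, Gjb2, Gjb6 and Gjb5 in p63alphaKO and in WT. In p63alphaKO no neighbours in that order overlapped, and Gjb5 (18.49 to 40.9 CPM) lay well below Gjb6 (106.9 to 176.9 CPM). In WT only Gjb6 (75.9 to 107.8 CPM) and Gjb5 (75.2 to 77.3 CPM) overlapped.

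The summed level of the connexins given here overlapped between the groups, and its make-up differed. Over 18 connexin genes the sum was 939.0, 916.7 and 997.1 CPM in p63alphaKO replicates 1, 2 and 3 and 943.4, 1116.0 and 833.0 CPM in WT replicates 1, 2 and 3. Gjb5 made up 3.33% ± 1.31 of it in p63alphaKO and 8.04% ± 1.15 in WT (SD, n = 3 each). The share of Gjb2 was 30.3, 29.3 and 32.7% in p63alphaKO replicates 1, 2 and 3 and 20.5, 20.4 and 15.5% in WT replicates 1, 2 and 3. That of Gjb6 was 13.6% ± 3.58 in p63alphaKO and 9.09% ± 0.578 in WT, and that of Gja1 51.4% ± 3.58 in p63alphaKO and 62.1% ± 2.26 in WT. For each of these 4 genes the shares of the groups did not overlap. In CPM the groups did not overlap for Gjb5, Gjb2 and Gja1 either, as for 21.0% of all tested genes. The shares of Gjb5, Gjb2 and Gja1 therefore restate differences given above, and Gjb5 was chosen for its fall. Gjb6 overlapped in CPM, so the gap between its shares also rests on the sums they are divided by. The 21.0% is for CPM, and no such figure was made for shares. Shares add up to a fixed total, so they do not move independently, and no test was made of them.

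The ratio of Gja1 to Gjb2 within a library separated the groups. This follows from the opposite differences of these genes in CPM, neither of which overlapped, and is no separate finding. The ratio was 1.75, 1.84 and 1.45 in p63alphaKO replicates 1, 2 and 3 and 2.94, 3.01 and 4.17 in WT replicates 1, 2 and 3. The ratio of Gjb2 to Gjb6 overlapped between the groups, at 2.34 ± 0.433 in p63alphaKO and 2.07 ± 0.357 in WT. That ratio was lowest in replicate 3 of either group, at 1.84 in p63alphaKO and 1.70 in WT.

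**Figure D4:**
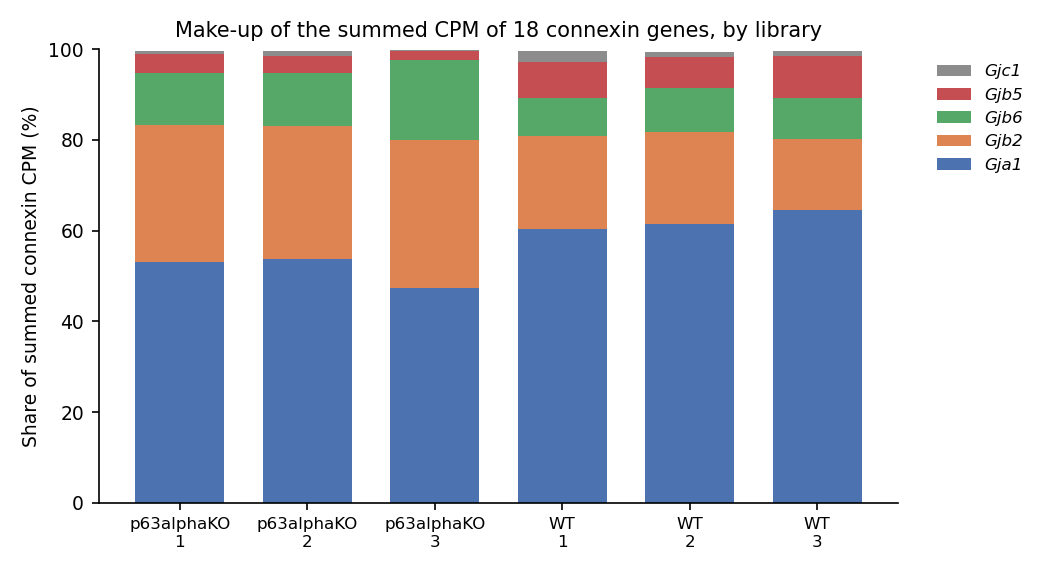
Share of the summed CPM of 18 connexin genes (y axis, %) taken by each of 5 genes in each library (x axis, p63alphaKO then WT). The Gjb2 band is 29.3 to 32.7% in p63alphaKO and 15.5 to 20.5% in WT, and the Gjb5 band 1.85 to 4.36% in p63alphaKO and 6.92 to 9.22% in WT.

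The spread between libraries of a group was different for each gene. In p63alphaKO the coefficient of variation was 36.9% for Gjb5, 30.9% for Gjb6, 10.2% for Gjb2 and 2.90% for Gja1, and in WT it was 1.42% for Gjb5, 19.7% for Gjb6, 27.2% for Gjb2 and 13.0% for Gja1. p63alphaKO replicate 3 had the lowest Gjb5, Gja1 and Gjc1 and the highest Gjb2 and Gjb6 of its group. It also had the largest granular sum, at 62871.3 CPM, and the smallest TMM factor, at 0.902. WT replicate 3 had the lowest Gjb2, Gjb6 and Gja1 of the WT libraries.

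The genes whose levels ran most like each connexin across the 6 libraries were found by the root mean square difference of log2 profiles centred on their means, among 3008 genes averaging 50 CPM or more. For Gjb5 they were Il20rb (0.247), a subunit of interleukin receptors, Tnfrsf19 (0.250), a receptor of the tumour necrosis factor family, and Lancl1 (0.275). Il20rb was at 99.7, 113.6 and 55.5 CPM in p63alphaKO replicates 1, 2 and 3 and at 151.6, 163.0 and 212.8 CPM in WT replicates 1, 2 and 3, with its lowest value, like Gjb5, in p63alphaKO replicate 3. For Gjb2 they were Gabarapl1 (0.0595), an autophagy gene, Trex2 (0.0732), a keratinocyte exonuclease, and Rassf5 (0.0869), and for Gjb6 they included Map3k8 (0.108), a kinase, and Fmo2 (0.119). For Gja1 they were Cox7a2 (0.0462), a subunit of the respiratory chain, Wdfy2 (0.0469) and Tbl1x (0.0594). Among the 4 connexins, Gjb2 and Gjb6 were the closest pair (0.234), and Gjb5 differed from Gjb2 by 1.13, from Gjb6 by 1.11 and from Gja1 by 0.617. Nearest genes by this measure share the sizes and directions of their differences by construction.

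Of 30 gap junction partners and regulators, which anchor, phosphorylate or degrade connexins, 26 were tested. None was called, where 1.65% of all tested genes were, so the lack of a call says little about these 26. Their log2 fold changes were positive for 9 and negative for 17, with a median of -0.12, beside -0.085 for all tested genes. Cdh1, the cadherin of epithelial adherens junctions that gap junction assembly depends on, was at 1474.9 ± 196.0 CPM in p63alphaKO and 1045.7 ± 173.5 CPM in WT (log2 fold change 0.50, limma adjusted p = 0.146). Tubb5, a tubulin of the microtubules along which connexins travel, was at 515.4 ± 44.2 CPM in p63alphaKO and 523.7 ± 106.9 CPM in WT. Ywhae, an adaptor that binds phosphorylated proteins, was at 538.6 ± 79.0 CPM in p63alphaKO and 475.9 ± 55.6 CPM in WT, and Ctnnb1, the catenin bound to Cdh1, at 468.8 ± 99.7 CPM in p63alphaKO and 454.8 ± 65.4 CPM in WT. The limma adjusted p of these last 3 lay between 0.678 and 0.996.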

How the data were processed

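The 6 libraries are 3' digital mRNA libraries, per the labels' protocols. STAR, HTSeq and mm10 are named in the submitters' processing notes. Versions, annotation and strand setting are not stated there. The authors deposited CPM, and 100% of the values were whole reads within 0.0055 CPM, which gave the reads per library. A mean of 10 CPM is 25.7 to 44.8 reads, and 3 reads are 0.670 to 1.17 CPM. The fit used limma 3.58.1 with an intensity trend under R 4.3.3, on log2(CPM + 1), modelling genotype alone, two-sided, with Benjamini-Hochberg adjustment over 7464 genes averaging 10 CPM or more, called at an adjusted p under 0.05; it was tested on simulated data. With 3 libraries against 3 an exact permutation test cannot go below p = 0.1, so single ratios and shares got no test. Alternatives were pseudocounts of 0.5 and 0.1, other filters, TMM and upper quartile scaling, edgeR 4.0.16 (quasi-likelihood, 82 genes called) and DESeq2 1.42.0 on whole reads, the replicate block and each library left out. The genes, lists and tests were chosen with earlier results of these data known. Named genes are the 4 connexins, other family members averaging 10 CPM or more, the 4 most abundant partners since none was called, and the 3 nearest profiles per gene. Gja4, Gjb1 and the marker genes were named after their values were seen. Positions are 1-based, from GENCODE mouse release M21 (mm10/GRCm38); promoter windows are from RefSeq (GRCm38.p6). A few genes that fall under these rules are not reported here and were left out of the connexin counts, sums and shares.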

Additional observations from a re-analysis of the deposited data

How the results depend on the processing

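Gjb2, Gjb6 and Gja1 kept their direction in all 16 alternatives run, but many of these could not reverse it. The other filters and the replicate block leave the estimate as it is. Leaving out 1 library cannot reverse groups that do not overlap, as for Gjb2 and Gja1. The kept direction is therefore little sign of stability, and that of Gjb5 follows from its choice and is none. With 1 library left out, the log2 fold change lay between -1.55 and -1.0 for Gjb5, 0.48 and 0.88 for Gjb2, 0.30 and 0.69 for Gjb6, and -0.36 and -0.18 for Gja1. Gjb2 passed the threshold with DESeq2 (0.77); its adjusted p without WT replicate 2 was 0.0501, and 0.0373 to 0.364 over all alternatives. The count of called genes over the whole table was 123, with 256 at a minimum mean of 1 CPM, 36 at 50 CPM (fewer genes tested) and 317 with DESeq2, and 37 to 186 with 1 library left out; the cause of the DESeq2 count was not tested. The correlations of same-numbered libraries' deviations were -0.0234, 0.0660 and -0.108, and those of the other pairs lay between -0.133 and 0.151. With so few libraries these values cannot decide whether same-numbered libraries shared a litter or batch, and the labels state no pairing. With the replicate block 127 genes were called, and Gjb5 was at -1.33 and Gjb2 at 0.71 (limma adjusted p = 0.119). Depth limits Gjb5 to 62 reads in its lowest library.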
